A study of Mus musculus with 4 samples.

Results

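Pou5f1, Sox2 and Nanog are the genes of the core pluripotency factors, and they were followed here through lists of strain-enriched histone marks in embryonic stem (ES) cells of the non-obese diabetic strain (NOD) and of C57BL/6 (B6). A listed region was assigned to a gene if it overlapped the gene body or lay within 150 kb of its transcription start site (TSS), or if an H3K27ac region carried the gene's name. This rule found 40 of the 31315 listed regions, with 9 at Pou5f1, 16 at Sox2 and 15 at Nanog. The cells came from blastocysts of each strain and were grown in 2i medium, which holds inhibitors of MEK and GSK3. The paper states growth without feeders where it describes its RNA sequencing, and its ChIP-Seq methods do not mention feeders. One ChIP-Seq library was made per strain for H3K4me3 (histone H3 trimethylated at lysine 4) and for H3K27ac (histone H3 acetylated at lysine 27), so 4 libraries stood for 4 groups of 1 and nothing could be tested between strains. The labels do not say which ES line was used or how many.

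Each deposited list held the regions of a mark that were enriched in 1 strain with the other strain's library as the background. A gene without a listed region may therefore carry the mark equally in both strains, and the lists do not show whether the defining genes of ES cells are marked at all. In whole-population ChIP-Seq, fewer cells with a mark and less of the mark per cell cannot be told apart. The H3K4me3 libraries held 22750449 tags (mapped reads) in NOD and 14791364 in B6, while for H3K27ac the depth is unknown.

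Oct4 (the product of Pou5f1) and Sox2 bind DNA together at many enhancers of ES cells, and Nanog, a homeodomain protein, shares many of their sites. All 3 factors also bind near their own genes, so that they form a circuit that keeps ES cells undifferentiated. H3K4me3 is highest at active promoters, and H3K27ac marks active promoters and enhancers.

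The sequences below are reference sequence (GRCm38.p6 from RefSeq, the same build as mm10, plus strand), and show the central 300 bp of the regions on which the results turn, with the RefSeq promoter of Nanog for comparison. Capitals mark matches on either strand to 5 short motifs, which were the POU octamer ATGCAAAT, the SOX site CATTGTT, the ESRRB site TCAAGGTCA, the STAT3 site TTCCNGGAA and the GC box GGGCGGG. Capitals also mark a composite SOX and POU pattern, CATTGT followed after 1 base by ATGCA, which was chosen after these sequences were seen. The region just upstream of Pou5f1 is shown because it had NOD tags and no B6 tag (chr17:35504182-35504481). The regions at -1.13 kb (chr3:34648714-34649013) and +4.19 kb (chr3:34654039-34654338) are those with the most tags at Sox2. The region at +115 kb (chr3:34764883-34765182) lies in the zone taken here for the Sox2 control region, a distal enhancer cluster. This zone was set broadly, from +100 to +120 kb, so the region may lie outside the enhancers themselves. The Nanog promoter (chr6:122707239-122707538) overlapped no listed region.
Pou5f1 upstream, NOD H3K4me3: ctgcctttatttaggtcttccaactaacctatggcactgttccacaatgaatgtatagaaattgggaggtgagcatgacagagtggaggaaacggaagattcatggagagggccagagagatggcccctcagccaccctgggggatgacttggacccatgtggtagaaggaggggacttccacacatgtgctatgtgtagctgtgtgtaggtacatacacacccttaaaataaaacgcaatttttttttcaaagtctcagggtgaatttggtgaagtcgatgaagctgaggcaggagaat
Sox2 upstream, NOD H3K4me3: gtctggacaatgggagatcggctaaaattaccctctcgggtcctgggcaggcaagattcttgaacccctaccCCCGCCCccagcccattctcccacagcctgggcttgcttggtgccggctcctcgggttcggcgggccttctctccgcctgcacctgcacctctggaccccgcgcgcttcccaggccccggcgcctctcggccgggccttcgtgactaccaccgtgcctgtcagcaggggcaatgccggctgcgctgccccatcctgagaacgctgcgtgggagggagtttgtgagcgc
Sox2 downstream, NOD H3K4me3: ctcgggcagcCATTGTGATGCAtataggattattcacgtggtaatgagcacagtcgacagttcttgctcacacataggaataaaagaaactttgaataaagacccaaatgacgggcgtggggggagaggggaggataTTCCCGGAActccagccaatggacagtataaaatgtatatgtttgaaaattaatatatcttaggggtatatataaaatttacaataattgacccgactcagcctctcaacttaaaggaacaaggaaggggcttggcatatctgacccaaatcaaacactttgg
Sox2 control region, NOD H3K4me3: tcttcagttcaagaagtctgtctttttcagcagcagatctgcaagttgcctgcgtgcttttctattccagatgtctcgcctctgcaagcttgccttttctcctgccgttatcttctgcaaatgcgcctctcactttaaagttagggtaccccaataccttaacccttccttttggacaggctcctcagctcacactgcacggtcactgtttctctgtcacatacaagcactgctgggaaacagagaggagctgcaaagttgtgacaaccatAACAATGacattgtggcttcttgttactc
Nanog promoter: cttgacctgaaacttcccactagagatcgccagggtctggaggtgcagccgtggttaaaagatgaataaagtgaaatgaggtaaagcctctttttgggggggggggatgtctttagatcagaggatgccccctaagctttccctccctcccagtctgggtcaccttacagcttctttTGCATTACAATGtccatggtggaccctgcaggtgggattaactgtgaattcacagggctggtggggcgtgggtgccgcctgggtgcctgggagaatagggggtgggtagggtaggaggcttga

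In these windows the region upstream of Pou5f1 held no match to the 5 motifs, and its whole 1663 bp held 1 GC box. The upstream Sox2 window held 1 GC box, which 5.61% of all NOD H3K4me3 windows of this length also held. The downstream Sox2 window held 1 STAT3 site, found in 0.853% of these windows, and 1 composite pattern, found in 5 of 12077 windows. The same composite pattern was in the Nanog promoter and in 9 of 32851 RefSeq promoters in all. Overlapping windows were counted separately there, and both Nanog windows held this same site. The window in the zone of the Sox2 control region held 1 SOX site, which was found in 4.76% of the windows. Of all NOD H3K4me3 windows, 86.7% held none of the 5 motifs. A match describes the letters only and is not a bound site.

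The first question was where strain-enriched regions lay at the 3 genes. The NOD H3K4me3 list held 22 of the regions, with 4 at Pou5f1, 13 at Sox2 and 5 at Nanog. The B6 H3K4me3 list held 6, with 1 at Pou5f1, 2 at Sox2 and 3 at Nanog. The NOD H3K27ac list held 1 region at Pou5f1, 1 at Sox2 and 5 at Nanog, and the B6 H3K27ac list held 3 at Pou5f1, none at Sox2 and 2 at Nanog. A listed region within 150 kb was common, since over 21774 protein-coding genes 76.3% had at least 1 NOD H3K4me3 region, 64.7% had a B6 H3K4me3 region, 62% had a NOD H3K27ac region and 58.6% had a B6 H3K27ac region. Having a region in these lists thus did not set the 3 genes apart. The map of the loci shows the regions by distance from the TSS.

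**Figure D1:**
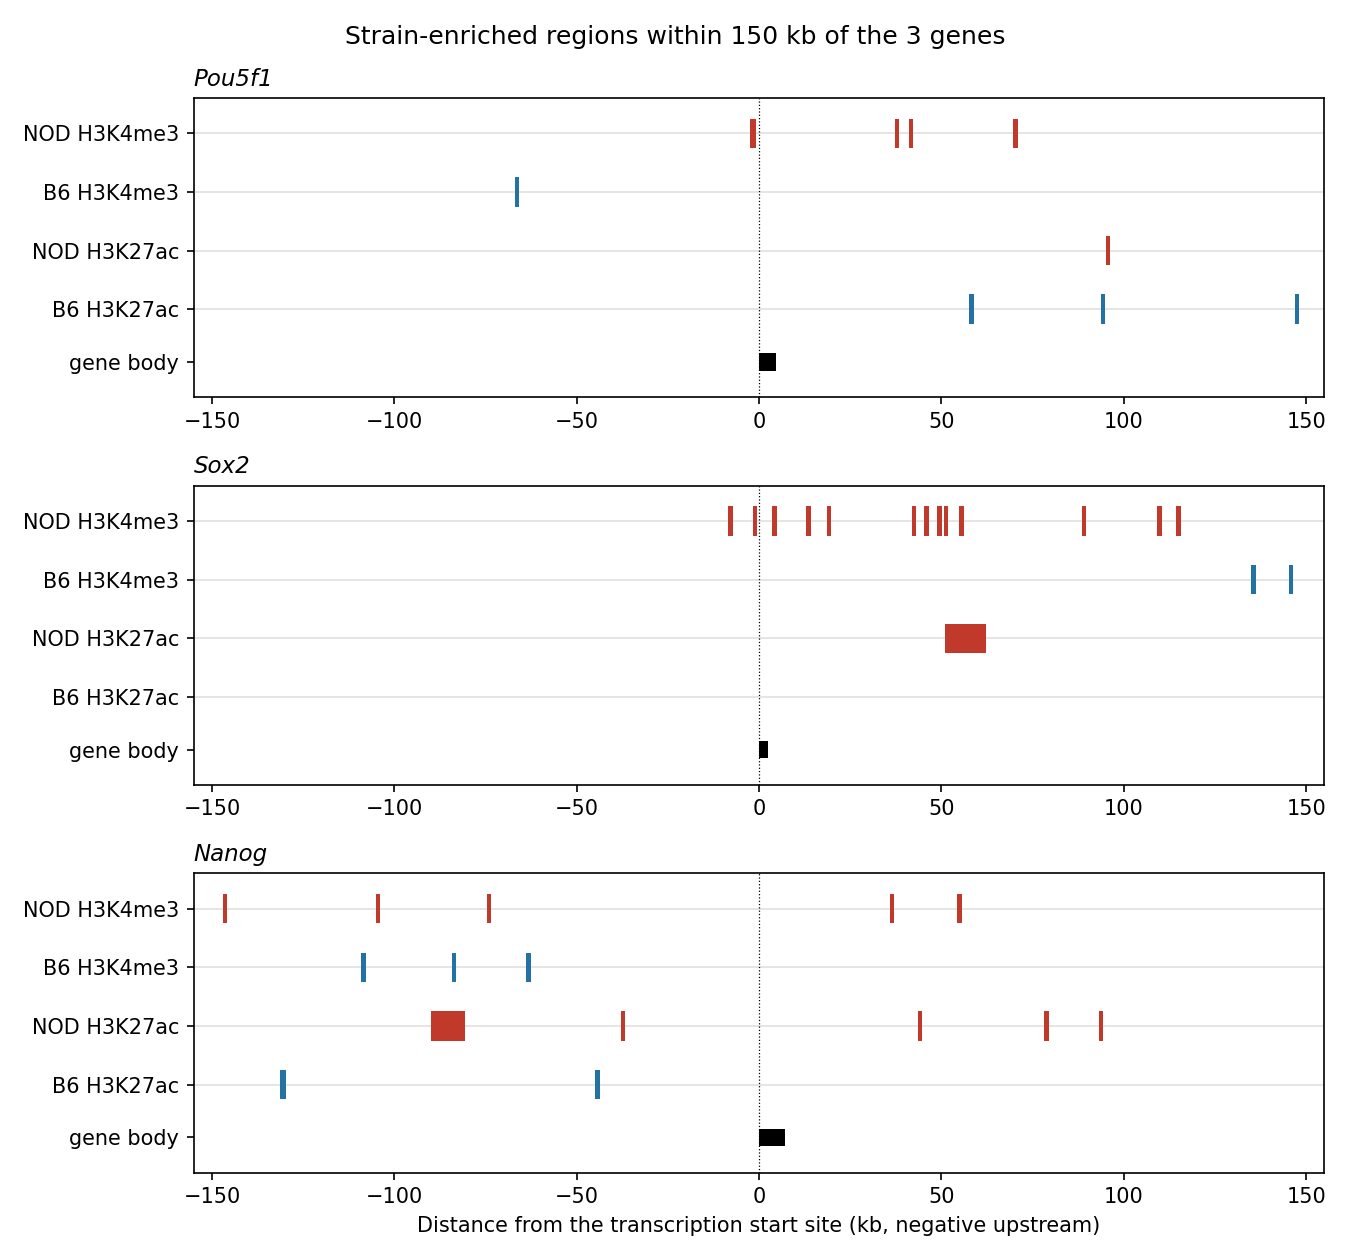
Listed regions at Pou5f1, Sox2 and Nanog by distance from the TSS in kb (x axis), with 1 row per strain and mark, NOD regions in red, B6 regions in blue and the gene body in black; narrow regions are drawn at a fixed minimum width. The 13 NOD H3K4me3 regions of Sox2 run from -7.81 to +115 kb, and no region of any list overlaps the body of any of the 3 genes.

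The number of regions ranged from 4 to 13 in the NOD H3K4me3 list. The 13 NOD H3K4me3 regions of Sox2 were reached or passed by 0.386% of protein-coding genes, where the median was 2 and the highest number was 29. The 4 regions of Pou5f1 were reached or passed by 23.8% of genes and the 5 of Nanog by 15.2%. In the NOD H3K27ac list the 5 regions of Nanog were reached or passed by 2.31% of genes. For B6 H3K4me3 these shares were 64.7% for Pou5f1, 35.9% for Sox2 and 17.7% for Nanog, and for B6 H3K27ac they were 15.2% for Pou5f1 and 31.6% for Nanog. Neighbouring genes share regions, so these shares are a description across genes and not a test.

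**Figure D2:**
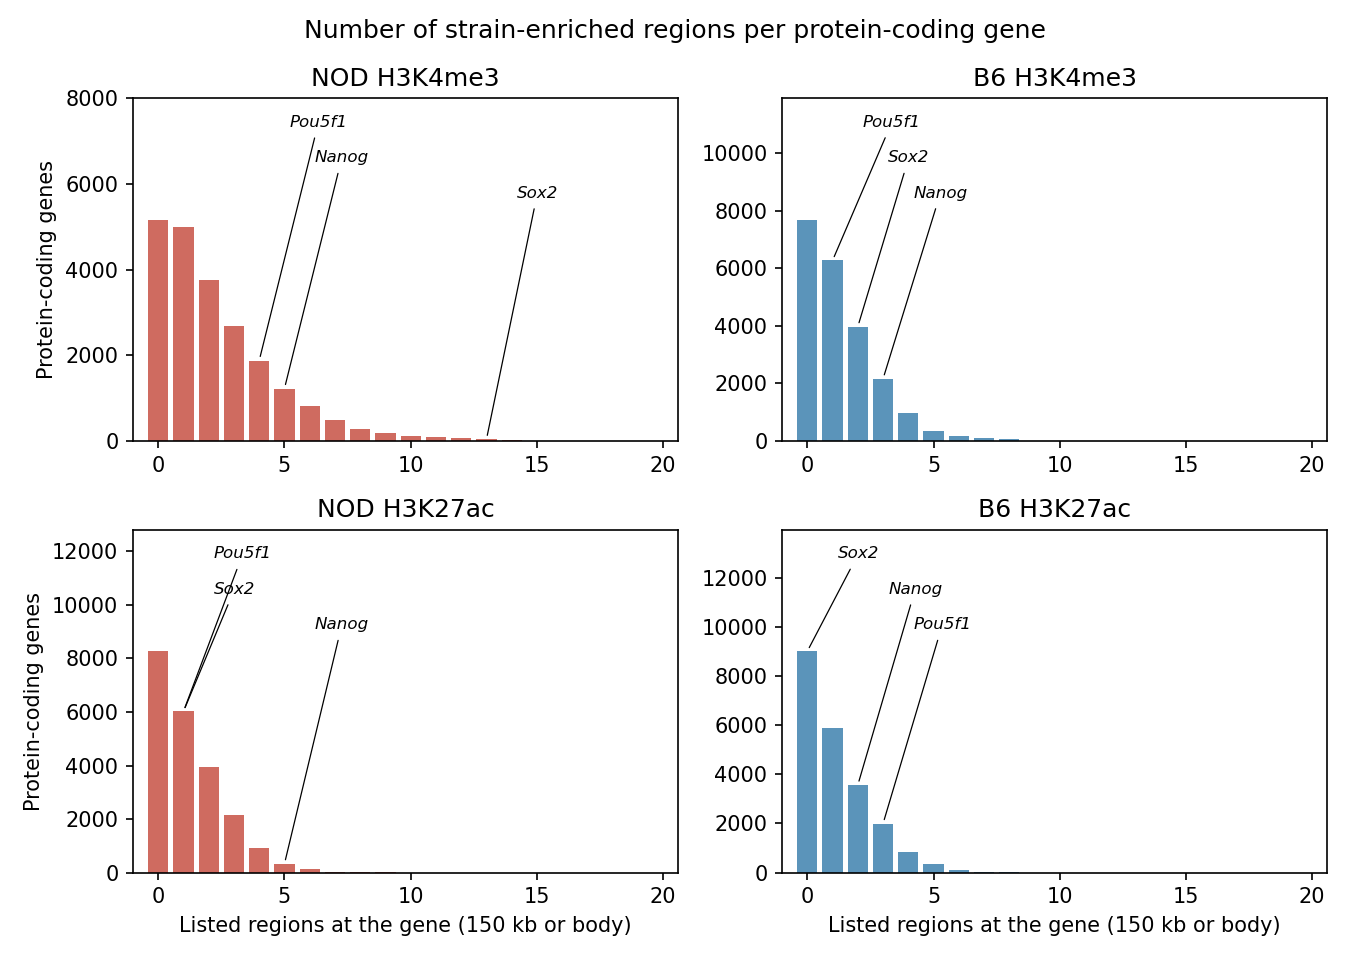
Number of listed regions within 150 kb of the TSS or in the gene body (x axis, drawn up to 20) against the number of protein-coding genes (y axis) in each list. Lines point to the bars that hold the 3 genes, and Sox2 with 13 NOD H3K4me3 regions lies far in the tail.

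Within 5 kb of the TSS or in the body, Pou5f1 had 1 NOD H3K4me3 region and Sox2 had 2, and neither had a region of the other 3 lists there. Nanog had none in any list. Over all protein-coding genes, 24.4% had a NOD H3K4me3 region this close, 16.4% a B6 H3K4me3 region, 16.5% a NOD H3K27ac region and 14.5% a B6 H3K27ac region. Like Nanog, 11493 of 21774 genes had no such region in any list.

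At Pou5f1, the gene of the POU-domain factor Oct4, the NOD H3K4me3 region closest to the TSS was centred at -1.70 kb (chr17:35503500-35505163) and ended 869 bp before the TSS. It lay within the upstream stretch that holds the proximal and distal enhancers of the gene, and RefSeq places it in an intron of the non-coding gene model Gm32362. It held 110 NOD tags and 0 B6 tags over 1663 bp. After scaling to the library totals, the exact 95% lower limit of the NOD to B6 ratio was 19.1, and the ratio against a floor of 3 tags for B6 was 23.8. This interval, like all others here, covers counting error between 2 libraries and not the spread between cultures. It also takes no account of a difference in ChIP enrichment or of the selection of regions by their ratio. The paper reports that H3K4me3 and H3K27ac at the Pou5f1 promoter were alike in NOD and B6 cells. The region here ended before the TSS, and a promoter marked alike in both strains would not be listed.

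An absence of B6 tags over such a length was uncommon. Of 12077 NOD regions, 4210 had 0 B6 tags, but most regions were 500 bp wide. Among 276 regions at least as wide as the one at Pou5f1, 2 had 0 B6 tags, including this one. Among the 4210 regions with 0 B6 tags, 10 had more NOD tags than this one. The B6 library held 7.40 tags per kb on average over the genome size given in the file header, and the NOD library 11.4. These averages include the tags inside enriched regions, so they overstate the level outside them. Whether reads can be mapped equally well to this stretch in both libraries was not tested.

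The other Pou5f1 regions lay farther away and held fewer tags. Both regions in introns of Cdsn, the gene of the skin protein corneodesmosin, were NOD-enriched for H3K4me3. The region at +37.8 kb had 29 NOD tags and 0 B6 tags, a ratio of 6.28 against the floor with a 95% lower limit of 4.79, and the region at +41.6 kb had 34 NOD tags and 2 B6 tags, a ratio of 11.1 (95% interval 2.83 to 95). An intergenic region at +70.3 kb had 33 NOD tags and 3 B6 tags, a ratio of 7.15 (2.24 to 36.4). The only B6 H3K4me3 region, at -66.3 kb, lay over a coding exon of H2-Q7, an MHC class I gene. It held 17 B6 tags and 6 NOD tags, 4.36-fold higher in B6 (1.64 to 13.5). H2-Q7 belongs to a family of near-identical copies between which short reads can be split, so its value is uncertain.

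H3K27ac at Pou5f1 was listed only far downstream. An H3K27ac score was read here as the excess of signal in the listed strain over the other strain. The files state neither its definition nor its units. The NOD region at +95.6 kb scored 13.3 and ranked 2984 of 6126, and it lay on a simple repeat. The B6 regions scored 10.2 at +58.2 kb, 9.17 at +94.3 kb and 17.0 at +148 kb, the last near the surfactant-associated gene Sfta2. The NOD region at +95.6 kb and the B6 region at +94.3 kb were thus close neighbours with opposite strain calls, both on repeats. No H3K27ac region of either strain lay at the enhancers upstream of the gene.

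At Sox2, the gene of an HMG-box factor, all 13 NOD H3K4me3 regions together held 816 NOD tags and 87 B6 tags over 8.99 kb of sequence that was spread over 124 kb. The region with the most tags was centred at +4.19 kb (chr3:34653868-34654508), at the place of the Sox2 regulatory region 2 (SRR2), an ES cell enhancer downstream of the gene. It held 192 NOD tags and 31 B6 tags, a ratio of 4.03 (95% interval 2.75 to 6.09). The region at -1.13 kb (chr3:34648477-34649250) held 136 NOD tags and 19 B6 tags, a ratio of 4.65 (2.87 to 7.97). These were the only listed regions within 5 kb of the Sox2 TSS, and the gene body itself overlapped none. Whether the NOD excess at Sox2 goes beyond a list-wide difference between the libraries was not tested.

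In both of these regions B6 tags were also many for a NOD-listed region. Per 10000000 library tags and kb of region, the H3K4me3 level at +4.19 kb was 132 in NOD and 32.7 in B6, and at -1.13 kb it was 77.3 in NOD and 16.6 in B6. The median B6 level over all NOD-listed regions was 2.70. The B6 level at +4.19 kb lay above that of 99.5% of the NOD-listed regions and the one at -1.13 kb above that of 97.2%. At Pou5f1 -1.70 kb the level on the same scale was 29.1 in NOD and 0 in B6. The plot of levels in both strains sets these side by side.

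**Figure D3:**
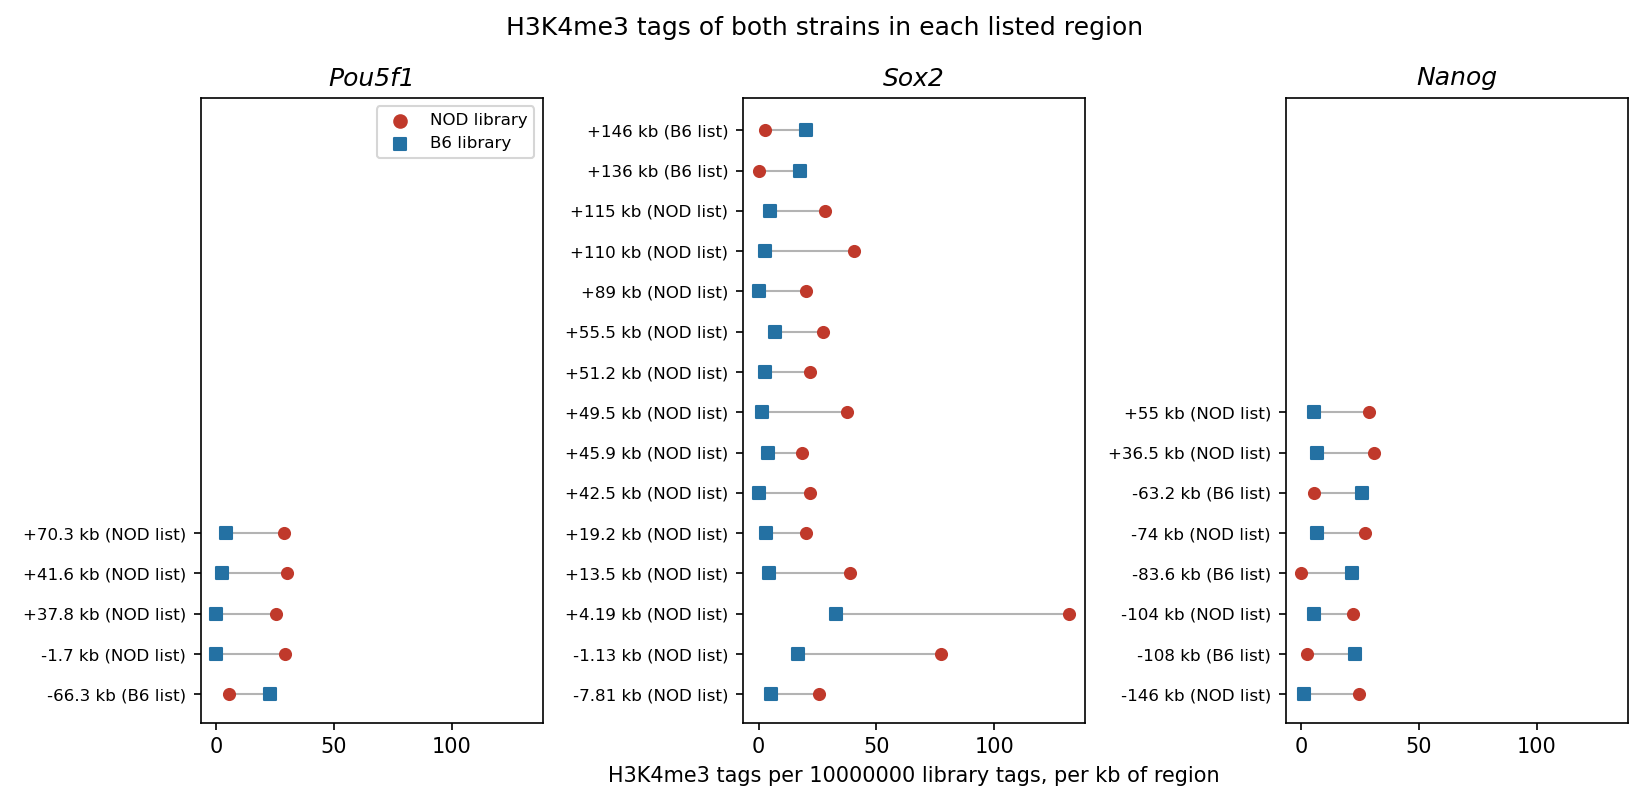
H3K4me3 tags per 10000000 library tags and kb of region (x axis) in the NOD library (red circles) and the B6 library (blue squares) for each listed region (y axis, distance of its centre from the TSS and the list that holds it). The region of Sox2 at +4.19 kb has the highest level in both strains, and the region of Pou5f1 at -1.7 kb has 0 in B6.

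The next 3 regions lay in introns of Sox2ot, the long non-coding RNA gene in which Sox2 lies, as did both regions above. At -7.81 kb there were 29 NOD tags and 4 B6 tags, a ratio of 4.71 (1.66 to 18.5). At +13.5 kb there were 97 NOD tags and 7 B6 tags, a ratio of 9.01 (4.21 to 23.0), and at +19.2 kb there were 50 NOD tags and 5 B6 tags, a ratio of 6.50 (2.61 to 20.9). Between +42.5 and +55.5 kb lay a group of 5 regions. Its strongest member, at +49.5 kb (chr3:34699027-34699964), held 80 NOD tags and 2 B6 tags, a ratio of 26.0 (6.97 to 218), the highest ratio at Sox2 for a region with B6 tags. The other 4 held 21 to 31 NOD tags and 0 to 5 B6 tags.

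The only H3K27ac region at Sox2 was NOD-enriched and lay in this same stretch. It was centred at +56.6 kb (chr3:34700837-34712291), was 11454 bp long and overlapped the gene model Gm3143, to which the file assigns it. With a score of 75.7 it ranked 654 of 6126, the highest score and the best rank among the 12 H3K27ac regions of the 3 genes. The NOD H3K4me3 regions at +51.2 and +55.5 kb lay inside it, with 25 and 31 NOD tags. These were the only places at the 3 genes where listed regions of both marks overlapped with the same strain higher.

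In the broad zone taken for the Sox2 control region, the distal enhancer cluster that drives Sox2 in ES cells, 2 NOD H3K4me3 regions were listed. The region at +110 kb (chr3:34759571-34760071) held 46 NOD tags and 2 B6 tags, a ratio of 15.0 (3.91 to 127). The region at +115 kb (chr3:34764557-34765507) held 61 NOD tags and 7 B6 tags, a ratio of 5.67 (2.59 to 14.7). No H3K27ac region was listed there in either strain. A last NOD region at +89.0 kb held 23 NOD tags and 0 B6 tags, a ratio of 4.98 against the floor with a 95% lower limit of 3.74. Farther out, both B6 regions had few tags, with 13 B6 and 0 NOD tags at +136 kb (a ratio of 6.67 against the floor, 95% lower limit 4.69) and 15 B6 and 3 NOD tags at +146 kb, a ratio of 7.69 (2.18 to 41.4).

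**Figure D4:**
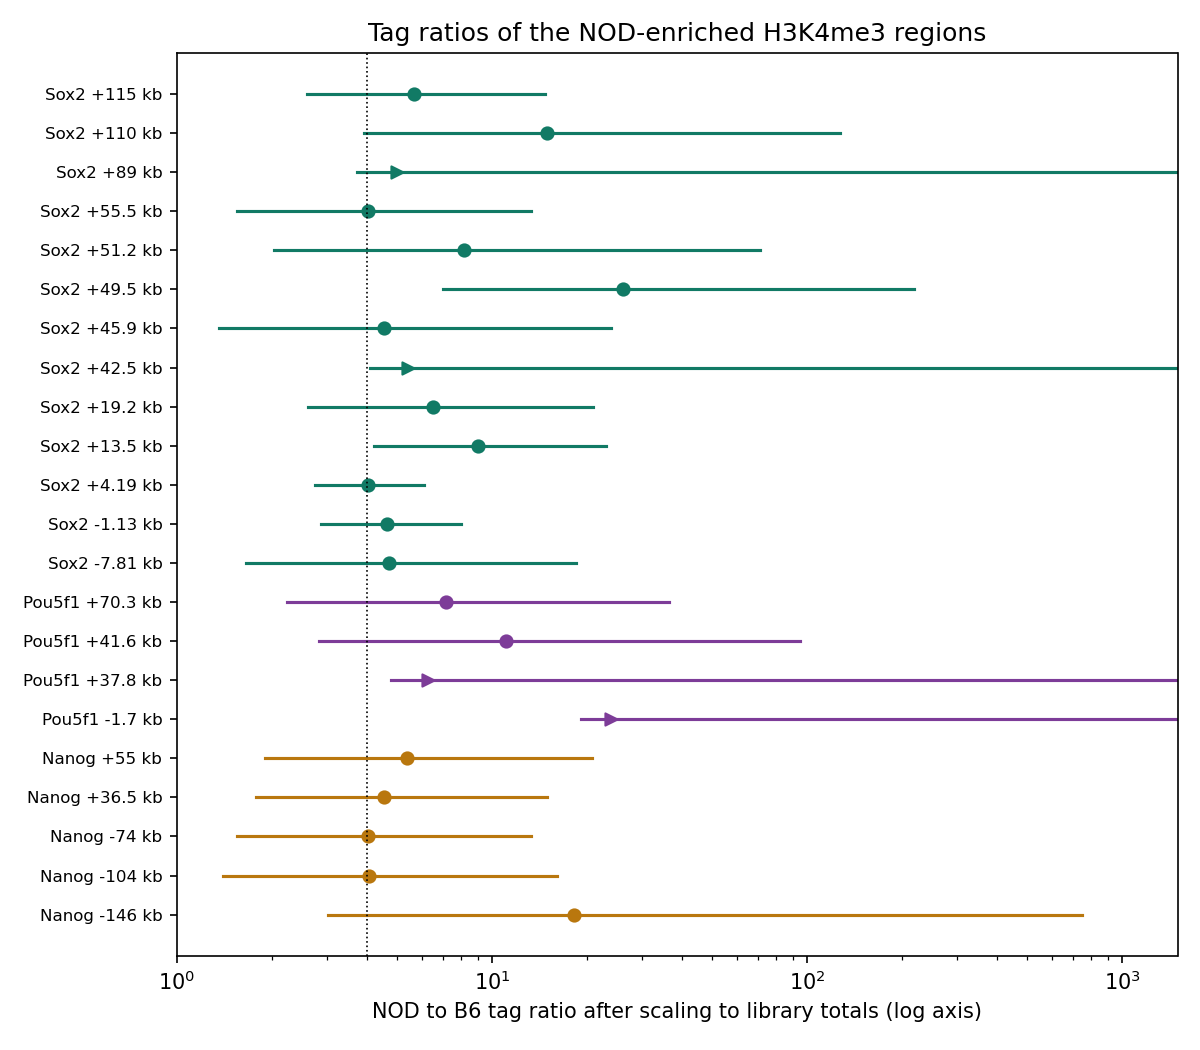
NOD to B6 ratio of H3K4me3 tags after scaling to library totals (log x axis) for the 22 NOD regions (y axis) at Sox2 (green), Pou5f1 (purple) and Nanog (orange), with exact 95% intervals from counting error. Triangles mark regions with 0 B6 tags, drawn at the ratio to a floor of 3 tags with intervals open to the right, and the dotted line marks the 4-fold limit of the peak caller, which 5 of the intervals clear.

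With so few tags, most intervals reached below the 4-fold limit of the caller. Of the 22 NOD regions at the 3 genes, 5 (22.7%) had a lower limit of at least 4, against 25.5% of the whole list. A deposited ratio under 5 was found in 8 of the 22 (36.4%) and in 16.8% of the whole list. Wider than the 500 bp of a single call were 7 of the 22 (31.8%) and 27.2% of the whole list.

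At Nanog, the gene of a homeodomain factor, regions were listed only beyond 36 kb from the TSS and in both directions of strain. The 5 NOD H3K4me3 regions held 25 to 35 NOD tags and 1 to 5 B6 tags, and their ratios ran from 4.03 to 18.2. The highest ratio came from 28 NOD tags and 1 B6 tag and had a 95% interval of 3.01 to 744. The region at -104 kb lay at the TSS of Apobec1, the gene of an RNA-editing cytidine deaminase, with 25 NOD tags and 4 B6 tags and a ratio of 4.06 (1.40 to 16.1). Those at -74.0, +36.5 and +55.0 kb had ratios of 4.03, 4.55 and 5.36. The last pair lay in introns of the RefSeq model of the glucose transporter gene Slc2a3.

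The B6 H3K4me3 regions at Nanog all lay upstream. The region at -108 kb, in an intron of Apobec1, had 17 B6 tags and 3 NOD tags, 8.72-fold higher in B6 (2.52 to 46.4). The region at -63.2 kb had 19 B6 tags and 6 NOD tags, a ratio of 4.87 (1.87 to 14.9). The region at -83.6 kb had 16 B6 tags and 0 NOD tags, a ratio of 8.20 against the floor with a 95% lower limit of 5.93. It lay 2.52 kb upstream of Dppa3, which encodes Stella, a factor of oocytes and naive pluripotent cells that shields DNA methylation.

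H3K27ac near Nanog went both ways within short distances. The B6 H3K4me3 region at -83.6 kb lay inside a NOD H3K27ac region of 9407 bp centred at -85.3 kb (chr6:122617503-122626910), with a score of 44.8 and rank 1061 of 6126, so the 2 marks were listed for opposite strains at Dppa3. The B6 H3K27ac region at -44.3 kb, at the place of the enhancer 45 kb upstream of Nanog, scored 39.0 and ranked 836 of 5525. A NOD H3K27ac region at -37.2 kb (chr6:122670037-122670460), 6.74 kb away, scored 18.5 and ranked 2278 of 6126, and it was the only region in the files to carry the name of any of the 3 genes. A B6 region at -131 kb, at the end of Apobec1, scored 34.7. NOD regions within the RefSeq model of Slc2a3 scored 10 at +44.1 kb, 12.5 at +78.8 kb and 11.4 at +93.7 kb. The deposited annotation calls these NOD regions intergenic. No region was listed at the enhancers 5 kb upstream and 60 kb downstream of Nanog.

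None of the 12 H3K27ac regions at the 3 genes was a super enhancer by a slope value of at least 1 in the file. The share of super enhancers in the whole lists is not given here, so this does not set the 3 genes apart. Chromosome 6, which carries Nanog, differed from the other 2 chromosomes in the balance of strains. Of its H3K4me3 regions 35.0% were NOD-enriched, against 62.9% on chromosome 17, 59.0% on chromosome 3 and 61.4% overall. Of its H3K27ac regions 35.1% were NOD-enriched, against 52.6% overall. At Nanog itself, 5 of 8 H3K4me3 regions and 5 of 7 H3K27ac regions were NOD-enriched. The part of this chromosome-wide balance in the Nanog results was not tested.

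The promoters of the 3 genes differed in CpG content, given as the observed over expected ratio in the RefSeq window of 300 bp. It was 0.819 for Sox2, higher than in 80.7% of 32851 promoters. It was 0.374 for Pou5f1 (higher than in 49.1%) and 0.192 for Nanog (higher than in 27.5%), beside a median of 0.384. The Sox2 promoter held 2 GC boxes and the Pou5f1 promoter 1, and 25.6% of promoters held at least 1. These values are for the window at the TSS used here. Another RefSeq window of Pou5f1 (chr17:35508557-35508856) had a CpG ratio of 0.388 and no GC box, and another of Nanog had 0.181.

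The likeness of other genes was measured as the distance between their summed own-strain values of the 4 lists (on a log2 scale, within 5 kb of the TSS or in the body). Closest to Pou5f1, with 48.4 NOD H3K4me3 tags per 10000000 and nothing in the other lists, were Fam161a, Gm9805 and Ppia with the same value to the digits shown. Closest to Sox2, with 144 such tags, were Zfp758, Osm and Agrn with 144, 145 and 146. The measure rests on 4 libraries and, for these genes, on 1 list.

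Genes of the wider pluripotency network were set beside the 3 genes, each with the same near window of 5 kb around the TSS and the gene body. Of 26 network genes, 14 (53.8%, against 24.4% of all protein-coding genes) had a NOD H3K4me3 region in this near window, and 7 (26.9%, against 16.4%) a B6 H3K4me3 region. For H3K27ac, Dppa3 and Lin28a had a NOD region (7.69%, against 16.5% of all genes), and 4 genes, Klf5, Prdm14, Tcf7l1 and Utf1, had a B6 region (15.4%, near the 14.5% of all genes). Gene bodies differ in length, which these shares do not take into account. Of 11 genes that mark differentiated layers, 7 (63.6%) also had a NOD H3K4me3 region and 2 a B6 one, a share as high as that of the network. Of 5 trophoblast genes, 1 had a NOD and 1 a B6 H3K4me3 region, and 3 had a NOD and 1 a B6 H3K27ac region. Of 6 fibroblast genes, 3 had a B6 H3K4me3 region and none had a region of the other 3 lists. One differentiation gene, Nes, had a NOD H3K27ac region and none had a B6 one. These lists are short, and their part in the results at the 3 genes was not tested.

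The most strongly listed network gene was Zfp42 (Rex1), a zinc finger gene of naive ES cells. Its widest NOD H3K4me3 region held 1436 NOD tags and 77 B6 tags, and the next had 992 NOD tags and 161 B6 tags. Lin28a, which encodes a regulator of let-7 miRNAs, had 185 NOD tags and 20 B6 tags, close to the 192 and 31 tags of the Sox2 region at +4.19 kb. The repressor gene Tcf7l1 had 101 NOD tags and 10 B6 tags, and Fgf4, a growth factor gene that Oct4 and Sox2 jointly activate, had 96 NOD tags and 5 B6 tags. Tfcp2l1, Nr5a2, Sall4, Dppa2, Fbxo15, Mycn and Trim28 had regions of 50 to 88 NOD tags and 2 to 13 B6 tags. The 110 NOD tags at Pou5f1 lay within the range of these genes. Their regions of at least 50 NOD tags held at least 2 B6 tags, while smaller NOD regions without a B6 tag were listed at Tfcp2l1 (30 NOD tags), Zfp42 (29) and Trim28 (24). Some of these genes also held B6-enriched H3K4me3 regions, all below the cut-off of 50 tags, which was not scaled to depth. At Tcf7l1 such regions had 37 B6 tags and 1 NOD tag, 30 and 2, and 28 and 0. Tfcp2l1 had one with 17 B6 tags and 3 NOD tags, and Lin28a one with 14 and 2.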

How the data were processed

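H3K4me3 and H3K27ac ChIP-Seq libraries of NOD and B6 ES cells, 1 per strain and mark, were analysed from 4 deposited region lists. According to the study's methods, reads were mapped to mm10 with bowtie2 and analysed with HOMER v4.8. The submitters' processing notes also name mm9, STAR 2.2.0c and CASAVA 1.8.2. The positions were checked against GRCm38.p6 RefSeq, where 89.9% of NOD and 89.5% of B6 H3K27ac regions with a gene had the same TSS distance within 10 bp.

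Per the file headers, H3K4me3 regions were called as peaks of 500 bp that reached 8 tags, a 4-fold excess over the other strain's library and a Poisson p-value of 1.00e-04. The deposited counts of tags were turned back into whole tags with the library totals (100% came out whole within 0.1 tags), and other-strain values that stand for no tags were taken as 0. The deposited signal of a region is normalised to 10000000 tags. The deposited fold is the ratio of scaled tags, and the deposited p-values were not used for single regions. The H3K27ac score and slope value are as deposited by the authors with the HOMER super enhancer pipeline.

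Ratios were scaled to library totals and given exact 95% Clopper-Pearson intervals, and a floor of 3 tags stood for 0. Python 3.11.15, numpy 2.4.6, pandas 2.3.3 and scipy 1.17.1 were used, and counting functions were tested on simulated data. No test between strains was possible with 1 library per group. The genes named are the 3 members, neighbours that hold a region, network genes with at least 50 own-strain tags in an H3K4me3 region, and the 3 most alike genes. Network genes named for H3K27ac were added after their values were seen. The places of known enhancers were broad zones set from textbook knowledge and were not measured here. The members and all gene lists were chosen with earlier results of these data known. One H3K4me3 region at Nanog is counted and plotted, but its annotation is not reported here.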

Additional observations from a re-analysis of the deposited data

How the results depend on the processing

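Region counts depended on the window and on cut-offs for strength. With windows of 100, 50 and 20 kb, the NOD H3K4me3 list held 18, 12 and 6 regions at the 3 genes instead of 22, the B6 H3K4me3 list 3, 0 and 0 instead of 6, the NOD H3K27ac list 7, 2 and 0 instead of 7, and the B6 H3K27ac list 3, 1 and 0 instead of 5. At 8-fold or more, 10 NOD and 3 B6 H3K4me3 regions were left by the deposited ratio, which puts a small value in place of 0 tags, and 7 and 2 by the ratio with a floor of 3 tags (chosen after seeing the data). At 20 or more own-strain tags, 22 NOD and 0 B6 H3K4me3 regions were left. With a cut-off equal for both depths (10 tags per 10000000, chosen after seeing the data), 21 NOD and 5 B6 regions were left. At an H3K27ac score of 20 or more, 2 regions were left in each strain, and 0 in each were super enhancers. The share of each whole list that passes these cut-offs is not given here, so these counts do not set the 3 genes apart. A window of 200 kb, region centres and every transcript start moved no count by more than 1.5 times. Over all RefSeq genes, the share with a region within 150 kb was 71.2% and 60% for H3K4me3 in NOD and B6 and 55.5% and 51.4% for H3K27ac, and within 5 kb of protein-coding genes it was 24.4%, 16.4%, 16.5% and 14.5% in the same order. The ratio of the 6 regions with 0 tags in the other strain rested on the value put in place of 0, and was 4.98 to 23.8 with the floor, 15.0 to 71.5 with 1 tag and 29.91 to 143.03 as deposited. For the other regions the deposited ratio is the same ratio of scaled tags. No paired analysis was possible because each group holds 1 library, and for the same reason no library could be left out. Few tags per region leave most ratios with wide intervals.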
